A study of Mus musculus with 2 samples.

Results

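The melanosome is the organelle in which pigment cells make and store melanin, and the genes described here code for 7 of its matrix and membrane proteins, Pmel, Gpnmb, Mlana, Slc45a2, Slc24a5, Oca2 and Gpr143. They were chosen by name, with Pmel found under its older symbol Si, and all 7 stand in the deposited table of 4197 genes. The series measured RNA of sorted cochlear cells by sequencing, to set the pigmented intermediate cells of the stria vascularis apart from the rest of the cochlear lateral wall. The GFP positive group is sorted cells of genotype wnt1CRE::Ai3, and the GFP negative group is the sorted remainder, labelled wnt1CRE::Ai4, both from lateral walls of mice at postnatal day 0 (P0). The series text gives the reporter as YFP. In both groups Cre recombinase is under the control of Wnt1, which is active in the early neural crest, so the sort takes cells by descent from the neural crest and not by pigment, and it can take Schwann cells with the pigment cells. The labels list 1 sample per group.

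Melanosomes mature from endosomes. Pmel is cut there into fragments that form amyloid fibrils, the scaffold on which melanin is laid down, and Mlana, a small membrane protein, binds Pmel and is needed for its processing. Gpnmb is a glycoprotein related to Pmel and is also made by macrophages and bone cells. Slc45a2 and Oca2 are transporters that help to make the melanosome lumen less acid, which tyrosinase needs, Slc24a5 is a cation exchanger, and Gpr143 is a G protein-coupled receptor that limits melanosome size. In the stria the pigment cells sit between the marginal and basal cells and are needed for the endocochlear potential.

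Every value below is a normalised read count, which is a gene's reads divided by the size factor of its library. The table holds 1 GFP negative value per gene and, for GFP positive cells, a mean made by the authors. The mean resolved into whole reads of 2 libraries, called A and B here, and whether the labelled GFP positive sample is among them is not known. Reads in listed genes numbered 17120511 in library A, 16584559 in library B and 12114107 in the GFP negative library. The authors' deposited table keeps only genes with a difference of 2-fold or more and a largest adjusted p of 0.00986, so all members had passed that limit before they were looked at here. The single GFP negative library leaves the differences without a replicate check on its side, so members are described by values and intervals. A count test on the recovered reads was run only as an alternative. Intervals are exact 95% intervals from the reads and cover counting error only. In sorted bulk RNA, fewer cells of a type and less RNA per cell cannot be told apart.

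All 7 genes were far higher in GFP positive cells, with ratios of the GFP positive mean over the GFP negative value from 67.7 for Oca2 to 1903 for Gpr143. All 7 were 4-fold or more higher at a value of at least 5, against 18.1% of all listed genes, and all were 16-fold or more higher, against 4.65%. Of the listed genes 43.6% were higher by any size, and 36.9% were 4-fold or more lower, which no member was. Their median log2 ratio on log2(value + 1) was 9.21, beside -1.34 over all listed genes. Ranked by ratio among the 4197 listed genes, Gpr143 stood at 1, Gpnmb at 10, Pmel at 11, Mlana at 20, Slc45a2 at 23, Slc24a5 at 38 and Oca2 at 71. The authors' adjusted p-values for the members rest on a single GFP negative library. They therefore do not measure spread between GFP negative samples and are not used here. Together the 7 genes held 4.98% of the listed values in library A and 5.29% in library B, against 0.00873% in the GFP negative library.

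**Figure D1:**
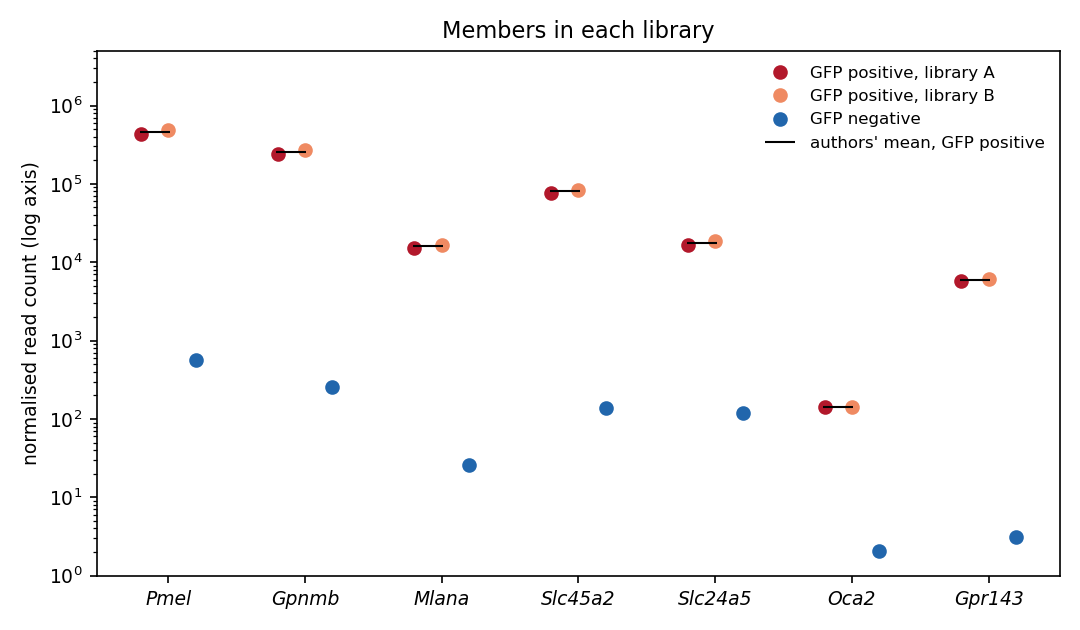
Normalised read count (log axis) of the 7 genes in GFP positive libraries A and B and in the GFP negative library, with a line at the authors' GFP positive mean. Both GFP positive points lie above the GFP negative point for every gene, and Oca2 is the lowest gene of the GFP positive libraries, at a mean of 141.

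Pmel, the fibril protein of the melanosome matrix, was the most abundant of the 7. It had 439453 in library A and 490853 in library B, against 558.6 in the GFP negative library. Both GFP positive values are high and close to each other, and the ratio was 833 (765 to 908). Among all listed genes, Pmel ranked 2 by its GFP positive mean and 2302 by its GFP negative value. In the GRCm38 annotation Pmel overlaps Cdk2, a cell cycle kinase gene on the other strand, by 837 bases. Cdk2 had a mean of 51244 in GFP positive cells against 2751 in the GFP negative library, a ratio of 18.6 (17.9 to 19.4). How strand was used in counting is not given in the sources used here, so reads of this pair in their overlap cannot be told apart. Pmel also overlaps Dgka on the other strand, by 105 bases, and Dgka was not listed.

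Gpnmb, the glycoprotein related to Pmel, had 240831 in library A and 268014 in library B, against 256.9 in the GFP negative library. The groups lie far apart, with a ratio of 991 (874 to 1127), and only 3 listed genes had a larger GFP positive mean. Since Gpnmb is also made by macrophages and bone cells, their markers were read beside it. Of 15 macrophage and leukocyte markers 14 were listed, and 14 of these were lower in GFP positive cells. Their summed value was 2098 in library A and 2113 in library B, against 11610 in the GFP negative library. Csf1r, the growth factor receptor of macrophages, had a GFP positive mean of 346 and a GFP negative value of 2105. Cd68, a lysosomal protein of macrophages, had a GFP positive mean of 196 and a GFP negative value of 736. Of 10 markers of bone cells and osteoclasts 5 were listed, 4 lower and 1 higher, and their sum was 918 in library A and 1143 in library B against 5077 in the GFP negative library. The higher one was Acp5, the acid phosphatase of osteoclasts, with 153 in GFP positive cells against 50.1 in GFP negative cells. Gpnmb differed in the same direction as Acp5 and in the opposite direction from 14 macrophage and 4 bone cell markers. Of all 4197 listed genes, 2366 were lower in GFP positive cells. The part of macrophages and bone cells in the Gpnmb values was not tested.

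Mlana, the small membrane protein that works with Pmel, was less abundant than either glycoprotein gene. Per kilobase of the longest transcript, the GFP positive mean was 17712 for Mlana, 68744 for Gpnmb and 218382 for Pmel. Mlana had 15350 in library A and 16744 in library B, against 26.1 in the GFP negative library. The GFP negative value stands for 25 reads, and the ratio of 615 had an interval of 416 to 950.

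The ratios of the 3 transporter genes spread more widely than those of the matrix genes. Slc45a2 had 75898 in library A and 84430 in library B, against 139.9 in the GFP negative library, a ratio of 573 (484 to 684). Slc24a5 had 16834 in library A and 18596 in library B, against 118 in the GFP negative library, a ratio of 150.1 (125 to 182). The Slc24a5 interval lay wholly below those of Gpr143, Gpnmb, Pmel, Mlana and Slc45a2, and inside that of Oca2. In GRCm38 Slc24a5 overlaps Myef2, a gene of a nucleic acid-binding protein on the other strand, by 4050 bases of gene span. Myef2 had a mean of 8786 in GFP positive cells against 3488 in the GFP negative library, a ratio of 2.52 (2.43 to 2.61). Its part in the Slc24a5 values was not tested.

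Oca2, the transporter gene mutated in pink-eyed dilution mice, was the least abundant. It had 142 in library A and 140.2 in library B, against 2.09 in the GFP negative library, which stands for 2 reads. The ratio of 67.7 is held only to between 18.6 and 561. Oca2 thus had a GFP positive mean of 141 where Slc45a2 had 80164. It ranked 2951 of 4197 by its GFP positive mean.

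Gpr143, the receptor of the melanosome membrane, had the highest ratio of the whole table on very few GFP negative reads. It had 5762 in library A and 6158 in library B, against 3.13 in the GFP negative library, which stands for 3 reads. The ratio was 1903 with an interval from 651 to 9227, which contains the ratios of Gpnmb and Pmel. The reads thus do not hold the order of these 3 genes by ratio. Nor do they hold the place of Mlana, whose interval of 416 to 950 overlaps theirs and contains the Slc45a2 ratio of 573.

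**Figure D2:**
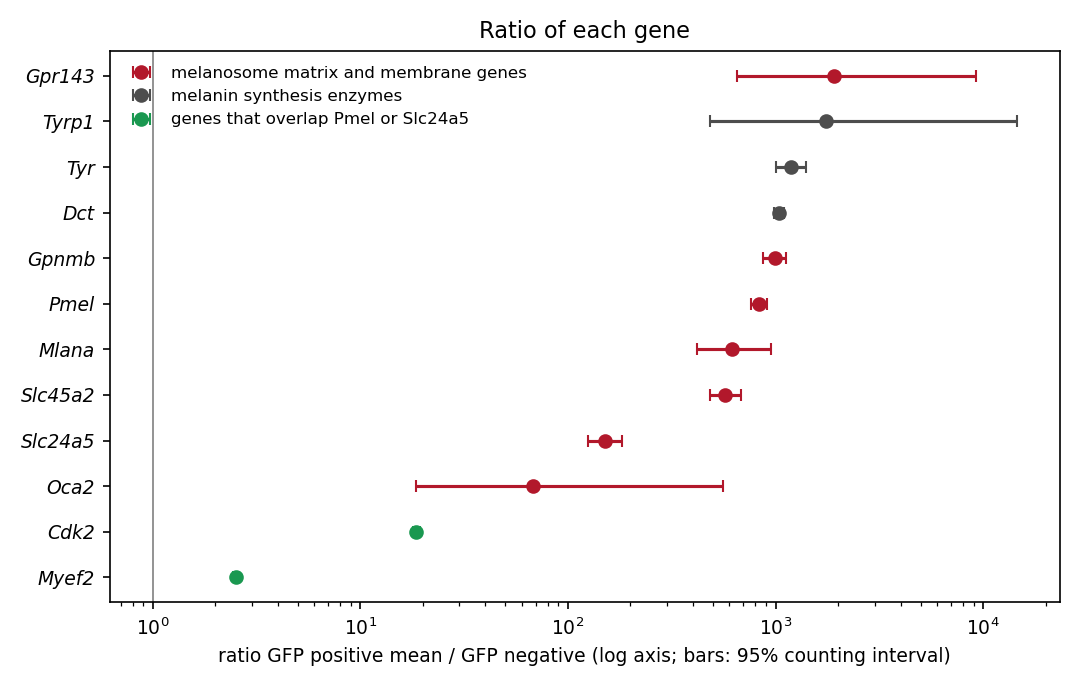
Ratio of the GFP positive mean over the GFP negative value (log axis) with exact 95% counting intervals for the 7 genes, the 3 melanin synthesis enzymes and the listed genes that overlap Pmel or Slc24a5. Slc24a5, at 150.1, lies below Slc45a2 at 573 with no overlap of the intervals, while the intervals of Oca2 and Gpr143 are wide.

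Levels of different genes were compared per kilobase of the longest transcript in GENCODE M21. In GFP positive cells the order of the mean normalised read count per kilobase was Pmel with 218382, Gpnmb with 68744, Slc45a2 with 26874, Mlana with 17712, Slc24a5 with 9066, Gpr143 with 3758 and Oca2 with 41.9. Libraries A and B gave the same order, and no counting intervals of neighbours overlapped in either. In the GFP negative library Pmel again led, with 262 per kilobase. It was followed by Gpnmb with 69.4, Slc24a5 with 60.4, Slc45a2 with 46.9 and Mlana with 28.8, and each of these has a counting interval that overlaps its neighbour's. Gpr143 with 1.98 and Oca2 with 0.619 per kilobase came last there, and these 2 could not be told apart.

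The mix of the 7 genes was not the same in the GFP positive libraries and the GFP negative one. Their reads came to 853389 in library A and 877094 in library B, against 1058 in the GFP negative library. Pmel took 55.3% of them in library A and 55.5% in library B, against 50.6% (47.5 to 53.6) in the GFP negative library. Gpnmb took 30.3% in each GFP positive library and 23.3% (20.7 to 25.9) of the GFP negative reads. Slc24a5 stood out in the other direction, with 2.12% in library A and 2.10% in library B against 10.7% (8.88 to 12.7) in the GFP negative library. That GFP negative share stands for 113 reads, and the part of the overlapping gene Myef2 in it was not tested. Slc45a2 took 9.56% and 9.54% in libraries A and B against 12.7% (10.7 to 14.8) in the GFP negative library. The Mlana shares of 1.93% and 1.89% in libraries A and B lay within the GFP negative interval of 1.53% to 3.47%. The same held for the Gpr143 shares of 0.725% and 0.696% against a GFP negative interval of 0.0585% to 0.826%. For Oca2, the 2 GFP negative reads gave 0.189% (0.0229 to 0.681), and the GFP positive shares of 0.0179% in library A and 0.0158% in library B lay below that interval.

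**Figure D3:**
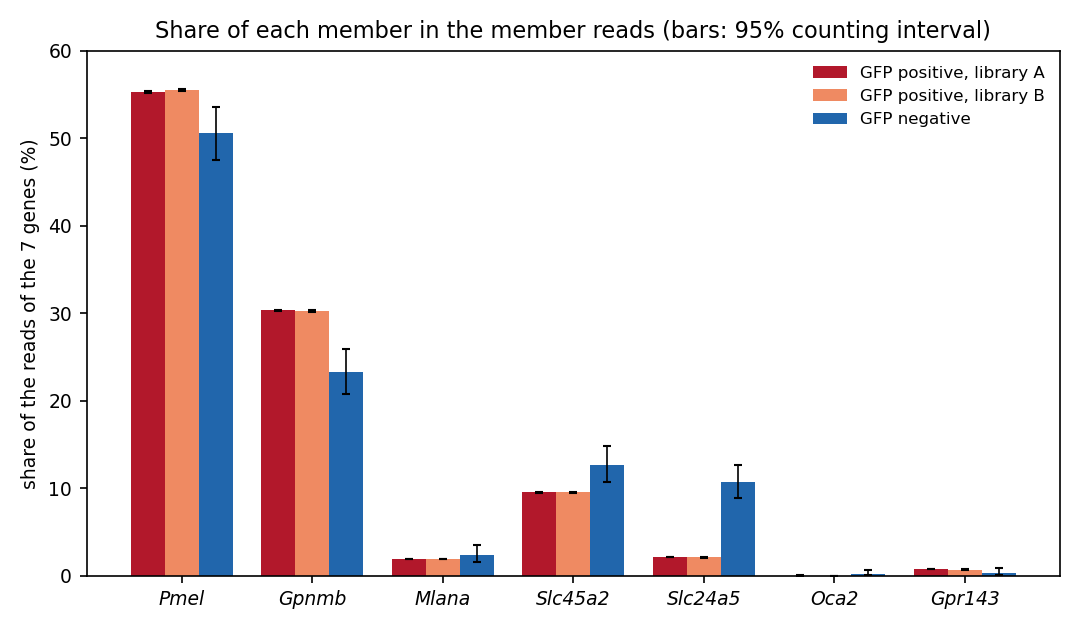
Share of the summed reads of the 7 genes taken by each gene, in percent, in GFP positive libraries A and B and in the GFP negative library, with exact 95% counting intervals. The GFP positive libraries nearly coincide, while Slc24a5 takes about 2.1% of the reads in them and 10.7% in the GFP negative library.

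Libraries A and B gave like values. Of the 7 genes 6 were higher in B than in A, with Oca2 the exception, beside 65.0% of the 1831 listed genes higher in GFP positive cells, and the log2 difference of B over A ran from -0.02 for Oca2 to 0.16 for Pmel. The central 95% of 3987 listed genes with at least 10 reads in each of these libraries ran from -0.70 to 0.63, with a median of 0.01, and all 7 members lay inside it.

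RefSeq promoter windows, from 250 bases before to 50 after a gene's start, were at hand for 3 of the 7 genes and are shown because these genes were high together. Both strands were searched for the core letters of the E-boxes that Mitf and its relatives bind, first CATGTG and then, as the other form of this core, CACGTG. Longer forms that include the first core (TCATGTG) or the second (TCACGTG, and within a palindrome TCACGTGA) were searched as well. The letters of a SOX site, ACAAAG, were the last. Capitals mark each match, and all sequences run 5′ to 3′ on the plus strand of GRCm38.p6, which is the strand of these genes.
Slc24a5, chr2:125067877-125068176: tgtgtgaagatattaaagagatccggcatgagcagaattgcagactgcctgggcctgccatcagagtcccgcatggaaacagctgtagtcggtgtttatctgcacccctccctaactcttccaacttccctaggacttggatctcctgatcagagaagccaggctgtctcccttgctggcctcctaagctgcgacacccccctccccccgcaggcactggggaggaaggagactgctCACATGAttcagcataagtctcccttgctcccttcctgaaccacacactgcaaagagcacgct
Gpnmb, chr6:49036268-49036567: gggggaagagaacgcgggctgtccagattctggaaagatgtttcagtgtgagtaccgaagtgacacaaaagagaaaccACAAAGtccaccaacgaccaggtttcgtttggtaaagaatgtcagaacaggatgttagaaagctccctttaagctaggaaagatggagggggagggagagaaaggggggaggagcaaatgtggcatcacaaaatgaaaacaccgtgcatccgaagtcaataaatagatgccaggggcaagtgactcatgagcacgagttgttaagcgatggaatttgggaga
Oca2, chr7:56239509-56239808: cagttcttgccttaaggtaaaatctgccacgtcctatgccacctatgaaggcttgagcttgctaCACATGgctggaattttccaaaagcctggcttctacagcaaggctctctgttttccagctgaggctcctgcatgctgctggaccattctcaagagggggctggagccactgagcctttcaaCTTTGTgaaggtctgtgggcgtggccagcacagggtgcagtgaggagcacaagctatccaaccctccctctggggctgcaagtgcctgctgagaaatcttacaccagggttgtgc
The Slc24a5 window holds CACATGA from base -13, counted from the gene's start, which is TCATGTG on the other strand and includes CATGTG. The Oca2 window holds CATGTG on the other strand from base -186 and ACAAAG on the other strand from base -65. The Gpnmb window holds ACAAAG from base -172 and none of the E-box letters. Of 32851 RefSeq promoter windows of this length, 14.2% hold the core CATGTG and 3.77% its longer form. The core CACGTG is held by 7.15%, its longer form by 3.77% and the palindrome by 0.974%. The SOX letters are in 18.7% of the windows. A match describes letters in a window and shows no binding.

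Beside the list counts below, 43.6% of all listed genes were higher in GFP positive cells and 18.1% were 4-fold or more higher. The melanin synthesis enzymes Tyr, Tyrp1 and Dct were 3 of 3 listed and 4-fold or more higher, with a median log2 ratio of 10.20, beside 9.21 for the 7 genes. Tyr, the rate-limiting enzyme, had a GFP positive mean of 182804 and a GFP negative value of 155, a ratio of 1183 (1007 to 1399). Melanosome transport on actin had 4 of 6 names listed, all 4 at least 4-fold higher, with a median log2 ratio of 5.90. Mlph, the linker between Rab27a and Myo5a, had 7829 in GFP positive cells against 84.6 in GFP negative cells, and the motor Myo5a had the smallest ratio of that list, with a GFP positive mean of 46865 and a GFP negative value of 3908.

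Sorting and biogenesis genes, which deliver cargo from endosomes to melanosomes, had 8 of 27 names listed. All 8 were higher in GFP positive cells, 4 of them by 4-fold or more. The median log2 ratio was 1.96, near the 1.78 of all listed genes higher in GFP positive cells. Rab38, a small GTPase that steers melanin enzymes to melanosomes, had 4864 in GFP positive cells against 54.3 in GFP negative cells and a log2 ratio of 6.46. Hps3, a subunit of the BLOC-2 complex, had a GFP positive mean of 11213 and a GFP negative value of 1453, and Lyst, a regulator of lysosome-related organelle size, had 6804 in GFP positive cells against 1243 in GFP negative cells. Stx12, an endosomal SNARE, had a GFP positive mean of 11759 and a GFP negative value of 4016, Hps4 of BLOC-3 had 6359 in GFP positive cells against 1827 in GFP negative cells, and Hps1, its partner, had the smallest difference with a log2 ratio of 1.49.

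Genes for Pmel processing and endosomal sorting had 8 of 13 names listed, 7 higher and 1 lower, with 3 of them 4-fold or more higher. The list had a median log2 ratio of 1.87 with its lower gene included, beside -1.34 over all listed genes. The 1.78 given above covers only listed genes that were higher in GFP positive cells. Bace2, the protease that releases the fibril-forming part of Pmel, had a GFP positive mean of 25271 and a GFP negative value of 2206, a ratio of 11.5 (10.97 to 11.97). Cd63 and Apoe, which help to sort Pmel fragments on vesicles inside endosomes, had GFP positive means of 50909 and 82064, against 8276 and 28700 in the GFP negative library. The proteases Ctsb and Adam10 had GFP positive means of 66042 and 26139, against 17628 and 7336 in the GFP negative library. The lower gene was Rab27b, a GTPase of vesicle release, with 107 in GFP positive cells against 395 in GFP negative cells.

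Among other ion and solute transporters of melanosomes and lysosomes, 6 of 12 names were listed, 5 higher and 1 lower, with 4 of them 4-fold or more higher. The cation channel Mcoln3 led, with a GFP positive mean of 33821 and a GFP negative value of 617, a ratio of 54.8 (50.5 to 59.5). Ostm1, the partner of the chloride exchanger Clcn7, had 6349 in GFP positive cells against 541 in GFP negative cells, and Clcn7 itself had a GFP positive mean of 8683 and a GFP negative value of 2714. Atp6ap2, an accessory protein of the proton pump, had 17664 in GFP positive cells against 2788 in GFP negative cells, and Atp7a, which brings copper to tyrosinase, had a GFP positive mean of 9478 and a GFP negative value of 2059. Slc7a11, the cystine transporter, was the lower gene with 217 in GFP positive cells against 1256 in GFP negative cells.

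Of 12 pigment cell transcription factors 7 were listed, 6 of them 4-fold or more higher and 1 lower. The list had a median log2 ratio of 6.11. Mitf, which directs many melanosome genes, had a GFP positive mean of 45308 and a GFP negative value of 657, and Tfeb, its relative that directs lysosome genes, had 9473 in GFP positive cells against 845 in GFP negative cells. Pax3 had the largest log2 ratio at 9.58, with a GFP positive mean of 13548 and a GFP negative value of 16.7, which stands for 16 reads. Its ratio was 811 (499 to 1419). Other genes of this list had fewer GFP negative reads and intervals that contain this ratio, so the reads do not hold the first place of Pax3. Sox10 had 38046 in GFP positive cells against 743 in GFP negative cells. Lef1, a factor of Wnt signalling, was lower, with a GFP positive mean of 145 and a GFP negative value of 2742.

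Relatives of the members by sequence went both ways. Of 14 names 5 were listed, 2 higher and 3 lower, with a median log2 ratio of -1.99. Slc24a2, a relative of Slc24a5, had 2537 in GFP positive cells against 27.1 in GFP negative cells, a ratio of 93.4 (63.7 to 143). Its other listed relatives Slc24a3 and Slc24a4 were lower, with GFP positive means of 205 and 14.9, against 820 and 90.8 in the GFP negative library. Of the relatives of Oca2, Slc13a4 had a GFP positive mean of 654 and a GFP negative value of 82.5, and Slc13a5, a citrate transporter, had 263 in GFP positive cells against 3967 in GFP negative cells. Of 6 genes named as partners of Gpr143 signalling 3 were listed. Arrb1, an arrestin, had a GFP positive mean of 4164 and a GFP negative value of 1896, whereas Gnai1, a G protein subunit, had 314 in GFP positive cells against 1334 in GFP negative cells, and Serpinf1, which codes for a secreted protein whose release follows receptor stimulation in human retinal pigment cells, had a GFP positive mean of 4058 and a GFP negative value of 30922.

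**Figure D4:**
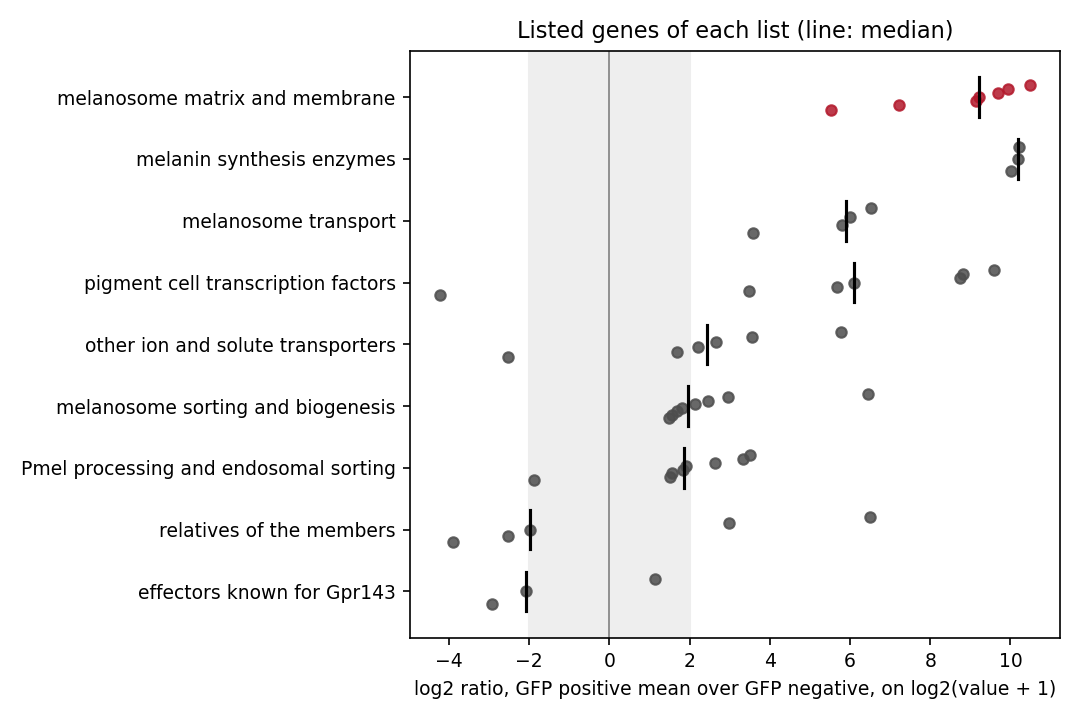
Log2 ratio of the GFP positive mean over the GFP negative value, on log2(value + 1), for the 7 genes and for the listed genes of 8 lists, with a line at each median and grey shading where the ratio is under 4-fold. The 7 genes run from 5.53 to 10.49 with a median of 9.21, next to the melanin synthesis enzymes at 10.20.

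The listed gene nearest to each of 6 members over the 2 deposited values, as a distance on log2(value + 1), was found among all listed genes other than members and predicted genes. Slc45a2 lay nearest to Hpse, which codes for heparanase, with 81968 in GFP positive cells against 159 in GFP negative cells and a distance of 0.18. For Slc24a5 it was Plxnc1, a semaphorin receptor, with 20613 in GFP positive cells against 148 in GFP negative cells and a distance of 0.39. For Mlana it was Stmn3, a stathmin, with a GFP positive mean of 11890 and a GFP negative value of 20.9 and a distance of 0.53. Gpr143 lay nearest to Tyrp1, with 3665 in GFP positive cells against 2.09 in GFP negative cells and a distance of 0.82, and Gpnmb to Tyr, with a distance of 0.87. Pmel had no close neighbour, its nearest being the endothelin receptor gene Ednrb with a GFP positive mean of 252487 and a GFP negative value of 1229 at a distance of 1.44. A likeness over 2 values, one of them a few reads for Gpr143, describes this table only.

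**Figure D5:**
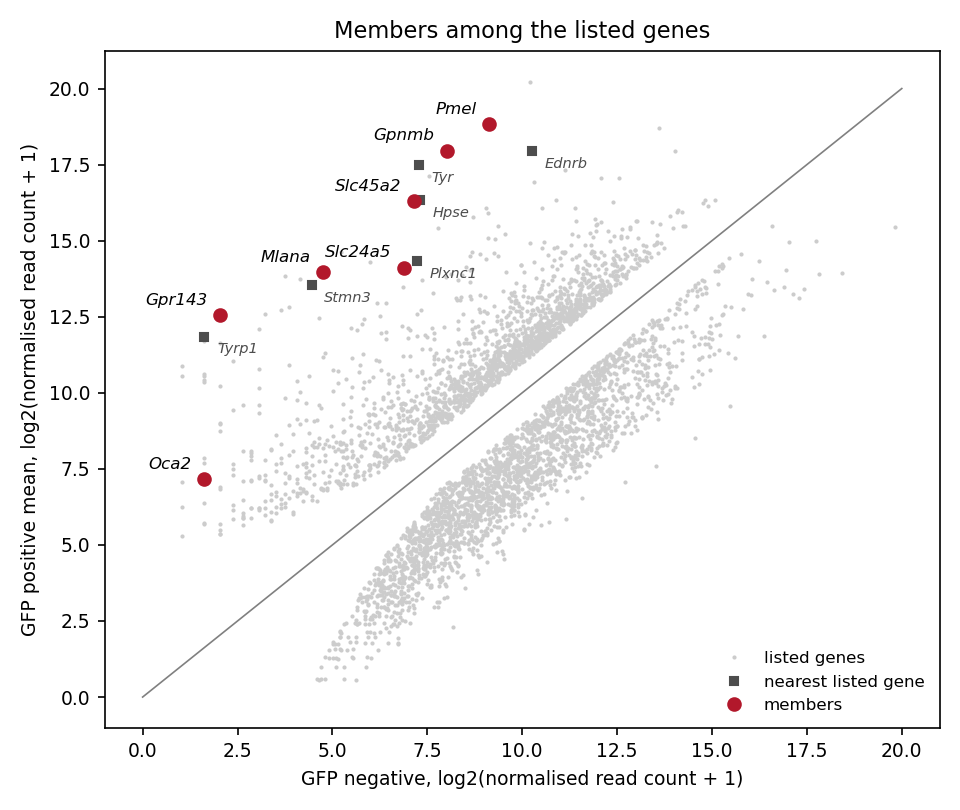
All 4197 listed genes by their GFP negative value (x axis) and GFP positive mean (y axis), both as log2(normalised read count + 1), with the 7 genes and the nearest listed gene of 6 of them. The empty band along the diagonal is the authors' limit on the log2 ratio, and all 7 genes lie above it, on the GFP positive side.

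Markers of the sorted cell types were read beside these values. All 9 pigment and intermediate cell markers were listed and higher in GFP positive cells, against 43.6% of all listed genes, with a median log2 ratio of 8.32. Tyr, Tyrp1, Dct and Mitf are among these markers and also stand in the lists above. Schwann cell and glial markers were also higher in GFP positive cells, by less than the members. Of 13 names 9 were listed, 9 of these were higher, and the median log2 ratio was 3.58, beside 9.21 for the members. Their sum was 58082 in library A and 54284 in library B against 6004 in the GFP negative library. Erbb3, which codes for a neuregulin receptor, had 17341 in GFP positive cells against 409 in GFP negative cells, and Cdh19, a cadherin of the Schwann lineage, had a GFP positive mean of 6689 and a GFP negative value of 11.5. Of these glial genes 1 of 9 was higher in library B than in library A, against 6 of 7 members and 65.0% of all listed genes higher in GFP positive cells. Their part in the member values was not tested. Markers of cartilage, with 7 of 7 listed, and of fibrocytes and otic mesenchyme, with 7 of 7 listed, were all lower. Of red blood cell markers 5 of 6 and of endothelial markers 2 of 5 were listed, all lower, and of 6 marginal cell markers 0 were listed. Beside these counts of lower markers, 2366 of all 4197 listed genes were lower in GFP positive cells.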

How the data were processed

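RNA of sorted mouse cochlear lateral wall cells was sequenced from Illumina TruSeq libraries, per the labels' protocols. Reads were aligned with STAR to mm9, per the submitters' processing notes. Not given in the sources used here are the read counter and its strand setting, the annotation, and how values were normalised and tested.

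Per the file headers, the authors deposited a normalised signal (read count over a size factor) for the GFP negative library, their average for GFP positive cells, the ratio (fold) of these, the log2 of that ratio, and p-values before and after adjustment. All GFP negative values (100%) were whole reads times 1 step, within 1e-06 reads, with a size factor of 0.958. Each average (100%) was matched by a single pair of whole read numbers over 2 steps, within a relative tolerance of 1e-13, giving size factors of 1.07 and 0.991. Of averages shifted slightly on purpose, 0.0238% had a match. The recovery was checked on simulated data. Depth is that of the listed genes only. Gene IDs were matched to GENCODE M21 names (GRCm38), where 4064 matched and 133 kept their table symbol. The reference served for names, transcript lengths and gene overlaps.

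Log2 ratios used a pseudocount of 1, so differences of genes with few reads come out too small. Ratios carry the exact binomial (Clopper-Pearson) interval and levels per kilobase the exact Poisson interval. A gene was called at 4-fold or more if its higher value was at least 5. As an alternative, edgeR 4.0.16's quasi-likelihood test on the recovered reads passed 4197 of 4197 genes at a Benjamini-Hochberg threshold of 0.05, of which 1831 were higher and 2366 lower. It compares 3 libraries, not the conditions, over genes already chosen for a difference. Scalings, pseudocounts, thresholds and single libraries were tried as further alternatives.

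The members and lists were chosen with earlier results of these data known. The text names the 7 members, the listed gene nearest to 6 of them, and of each list up to 6 listed genes, or else the 4 with the largest value and those with the extreme log2 ratios. Marker lists are given mainly as counts and sums. Genes that overlap a member were added after their values were seen. A planned comparison of protein sequences was not analysed here. Python 3.11.15, SciPy 1.17.1 and R 4.3.3 were used. Some genes that the rule or lists name are not reported here.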

Additional observations from a re-analysis of the deposited data

How the results depend on the processing

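Of 49 recomputed log2 ratios of single members, 49 stayed above 0, from 3.65 (Oca2, pseudocount of 10) to 11.81, and 38 lay within the counting interval. The count of members 4-fold or more higher stayed at 7 under each alternative tried: both other pseudocounts, both scalings, libraries A or B alone, 16-fold, a minimum value of 100 and none. The median log2 ratio of the members became 10.52 once ratios were centred on the median of listed genes with both values at least 5, a log2 ratio of -1.31 (-1.34 over all listed genes). Scaling to the listed total shifts the ratios by -0.37 and gave 9.20 for the summed member values, reported as 9.57, and leaving Pmel out of the sum gave 9.42. With libraries A or B alone the summed value ranged from 9.49 to 9.64 and the median from 9.15 to 9.27. Counts of listed genes 4-fold or more higher became 8 for sorting and biogenesis, 7 for Pmel processing and 1 for the partners of Gpr143 after centring, against 4, 3 and 0 as reported. At 16-fold they became 1 for sorting and biogenesis, 0 for Pmel processing, 1 for other transporters and 1 for relatives of the members. Per kilobase of the union of all exons, 3 members changed place in the GFP negative library, where Slc24a5 and Slc45a2 moved ahead of Gpnmb, and 0 in GFP positive cells. The edgeR test gave the members log2 ratios from 5.9987 for Oca2 to 10.84 for Gpr143. No paired analysis was possible because the labels give 1 sample per group. The GFP negative reads limit the precision: Oca2 rests on 2 and Gpr143 on 3. The order per kilobase in single libraries and the shares without Pmel were chosen after seeing the data.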
